A study of Gallus gallus with 23 samples.

Results

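Transcripts of titin and of 9 other muscle proteins of the Z-disc, the M-band, the thick filament and the costamere were followed in the growth plate cartilage of chicken embryos. The genes were TTN, MYBPC3, MYOM1, MYOM2, MYOM3, ACTN2, MYOZ2, CSRP3, PDLIM3 and SMPX, and they were taken by symbol from the array's annotation. Each of the 10 had exactly 1 probe set that carried its symbol alone, out of 20804 probe sets and 11528 genes with a symbol of their own. Affymetrix arrays had been hybridised with RNA from 2 growth plates, that at the distal end of the femur and that at the proximal end of the tibiotarsus (TBT, labelled tibia). The 23 arrays form 8 groups: at embryonic day (E) 15, immobilised femur and immobilised TBT (3 arrays each), set against vehicle-treated control femur (2 arrays) and control TBT (3 arrays), and control femur and control TBT at E12 and at E13 (3 arrays each). Immobilised embryos had been given decamethonium bromide from E10, which holds muscle in rigid paralysis, and all controls had been given the vehicle, Tyrode's saline. Each array represents cartilage pooled from 4 embryos, so the spread between arrays is a spread between pools. The authors left 1 further array out of their own analysis, and it is not analysed here.

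Striated muscle contracts in sarcomeres, units bounded by Z-discs, in which actin filaments of opposite direction are tied together, with the M-band in the middle, where myosin filaments are tied to one another. Titin is a giant elastic protein that reaches from the Z-disc to the M-band and serves as a spring and a scaffold. Alpha-actinin cross-links actin and titin at the Z-disc, and the myomesins bridge titin and myosin at the M-band. Cartilage cells build no sarcomeres, and the growth plate lies close to muscle and its attachments. The paper proposes that embryo movement regulates genes tied to actin-mediated contraction in chondrocytes. These were bulk samples, and which cells held the transcripts was not tested. Fewer muscle cells in a pool, less of a transcript in each muscle cell and less of it in cartilage cells cannot be told apart.

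Cartilage markers were high in these samples. All 11 cartilage markers measured, among them aggrecan, matrilin 1 and SOX9, had means over the arrays of 9.32 to 12.9 on the log2 scale, while the median probe set of an array lay between 5.78 and 5.85. Of 20 skeletal muscle markers listed, 13 were on the array, with means of 3.91 to 8.88, and of 9 heart markers 4 were, with means of 2.89 to 4.84. Of the 10 titin, Z-disc and M-band genes, 1 to 5 lay under the array's median at E12, 3 to 5 at E13, 8 to 10 in immobilised E15 arrays and 6 to 8 in control E15 arrays. All 10 varied enough over the arrays to enter the tests (a standard deviation over 10 on the linear scale, which 11004 probe sets reached), although SMPX did so narrowly at 10.2. Within groups the 10 genes tended to be high or low together on an array. Control TBT replicate 2 at E15 had the highest value of its group for all 10 genes and replicate 3 the lowest for 8, and control femur replicate 3 at E13 had the highest for all 10. Calls that changed without one of these arrays are given below.

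The level of each gene followed the same order in both elements. By group mean, all 10 genes were highest at E12, lower at E13, lower again in E15 controls and lowest in immobilised E15 cartilage, in the femur and in the TBT alike. TTN had the widest span of the 10, with a difference between immobilised E15 and E12 of -4.59 in the femur and -4.35 in the TBT on the log2 scale. Neighbouring groups often overlapped: no member's 6 E13 arrays were all below its 6 E12 arrays, and the tests below show which steps exceeded the spread.

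**Figure D1:**
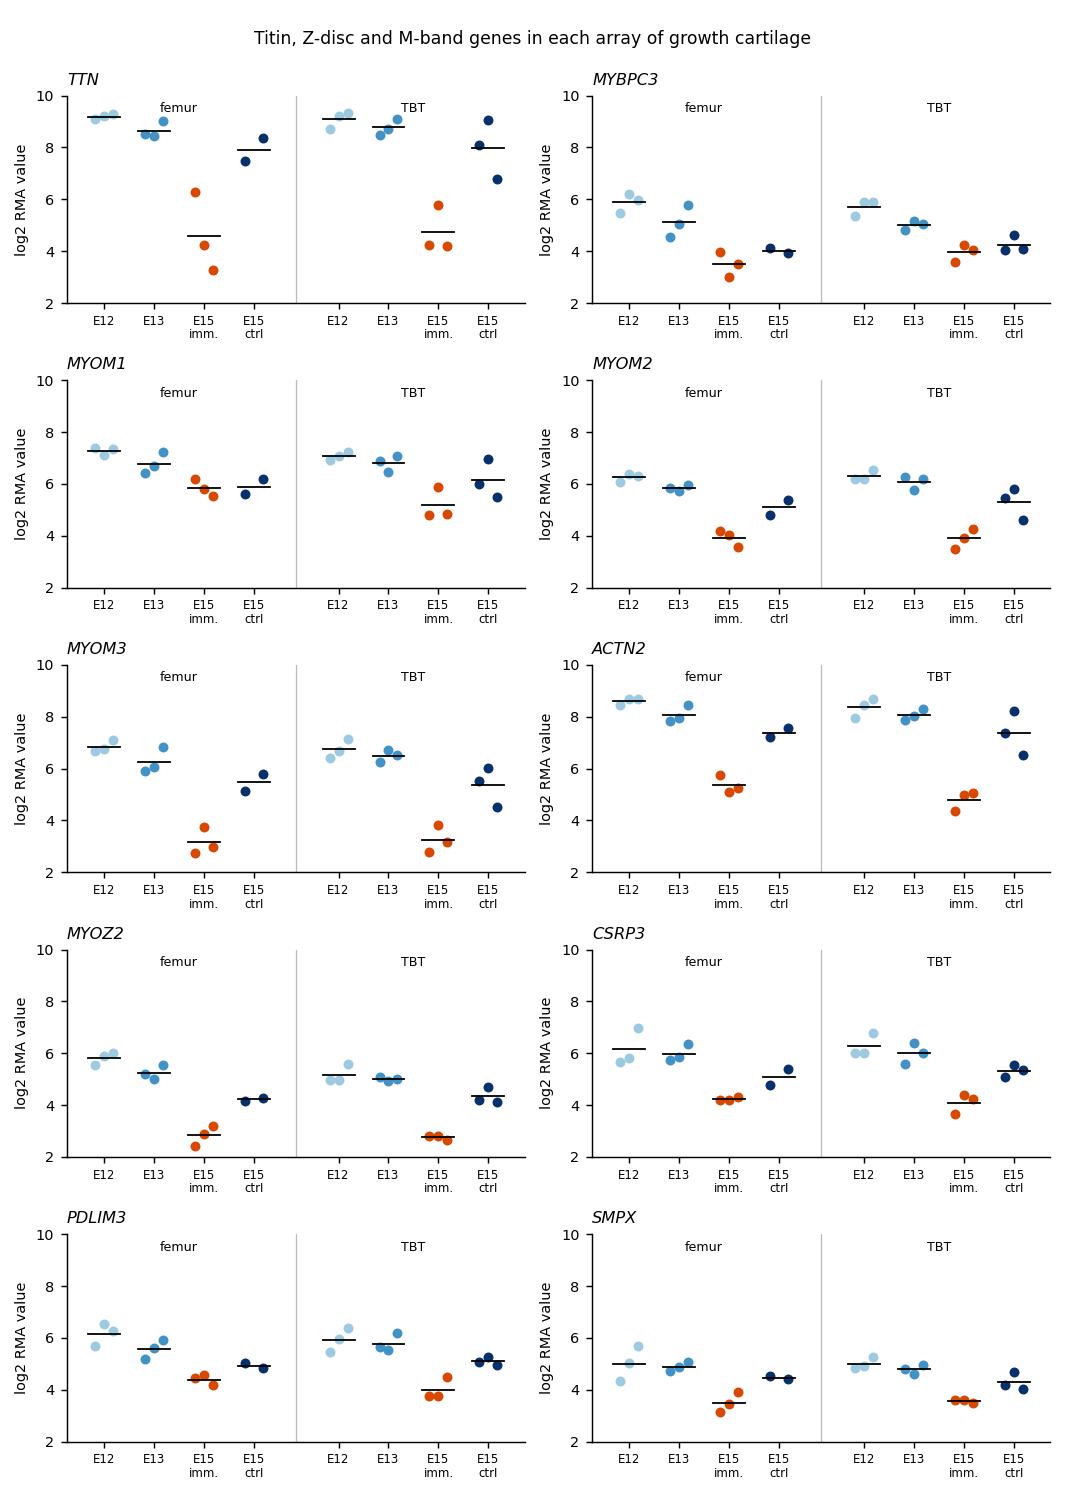
Log2 RMA value (vertical axis) of each titin, Z-disc and M-band gene in every array, with femur groups on the left and TBT groups on the right of each panel; each point is an array of 4 pooled embryos and each bar a group mean. TTN, MYOM3 and ACTN2 show the widest difference between immobilised (imm.) and control (ctrl) group means at E15, while arrays of the 2 groups overlap for MYBPC3 and MYOM1 in both elements.

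Immobilisation was asked first: did cartilage of paralysed embryos at E15 hold less of these transcripts than control cartilage? All 10 genes were lower on average in immobilised cartilage in both elements, although MYOM1 in the femur turned to 0.24 without control replicate 2 and to 0.11 without immobilised replicate 3. In the femur 5 of 10 passed the test as lower (TTN, MYOM2, MYOM3, ACTN2 and MYOZ2; limma, adjusted p under 0.05), against 2.5% of all probe sets tested that were called lower there. In the TBT the same 5 and also CSRP3 and PDLIM3 passed, 7 of 10, against 2.86% of all probe sets. The median change of the 10 was -1.08 in the femur and -1.32 in the TBT on the log2 scale, where the median probe set changed by 0.00 and 0.01. In 8 of 10 genes in the femur, and in 8 of 10 in the TBT, every immobilised array lay below every control array, which held for 17.8% and 10.9% of all probe sets.

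TTN, the titin gene, changed most. Its log2 values were 6.28, 4.25 and 3.26 in immobilised femur, against 7.48 and 8.36 in control femur. They were 4.23, 5.79 and 4.21 in immobilised TBT, against 8.09, 9.07 and 6.80 in control TBT. The groups did not overlap in either element, but immobilised femur replicate 1 stood well above the other 2 arrays of its group. The change was -3.32 ± 0.69 in the femur (SE; adjusted p = 0.0103) and -3.24 ± 0.62 in the TBT (adjusted p = 0.00465), which left 9.99% and 10.6% of the control level.

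MYBPC3 encodes the myosin-binding protein C that in mammals belongs to the heart, and it sits on the thick filament. It had 3.98, 3.00 and 3.50 in immobilised femur against 4.12 and 3.92 in control femur. In the TBT the values were 3.58, 4.24 and 4.06 after immobilisation against 4.04, 4.63 and 4.10 in controls. Immobilised and control arrays overlapped in both elements. The differences of -0.53 ± 0.33 and -0.30 ± 0.30 did not pass (adjusted p = 0.428 and 0.655), and their 95% intervals ran from -1.23 to 0.18 in the femur and from -0.93 to 0.33 in the TBT. MYBPC1, the slow skeletal relative of MYBPC3, was measured too, and it changed by -3.17 in the femur and by -3.65 in the TBT (limma, adjusted p = 0.000474 and 3.41e-05). Its E15 control means were 6.745 in the femur and 7.13 in the TBT, against 4.02 and 4.26 for MYBPC3. The changes of the 2 genes were not compared by a test, and whether the control level bore on them was not tested.

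Of the 3 myomesins of the M-band, MYOM3 and MYOM2 were called in both elements and MYOM1 in neither, and differences between these genes were not tested. MYOM3, a myomesin known in mouse muscle from a subset of fibre types, had 2.76, 3.73 and 2.98 in immobilised femur against 5.13 and 5.81 in control femur. In the TBT it had 2.77, 3.81 and 3.15 after immobilisation against 5.51, 6.02 and 4.52 in controls. The groups stood clearly apart, with changes of -2.31 ± 0.41 (adjusted p = 0.00321) and -2.11 ± 0.37 (adjusted p = 0.00242), so that 20.1% and 23.2% of the control level remained. MYOM2, or M-protein, had 4.2, 4.05 and 3.55 in immobilised femur against 4.82 and 5.40 in control femur, a change of -1.18 ± 0.29 (adjusted p = 0.0288). In the TBT it had 3.51, 3.93 and 4.25 after immobilisation against 5.47, 5.8 and 4.62 in controls, a change of -1.40 ± 0.26 (adjusted p = 0.00398). MYOM2 arrays did not overlap, though the lowest control TBT array lay close to the highest immobilised one. MYOM1, the myomesin found throughout striated muscle, had 6.21, 5.8 and 5.55 in immobilised femur against 5.61 and 6.19 in control femur. Those femur groups covered the same range, with a difference of -0.05 ± 0.37 (adjusted p = 0.965; 95% interval -0.83 to 0.74). In the TBT MYOM1 had 4.82, 5.88 and 4.84 after immobilisation against 6.0, 6.95 and 5.5 in controls. The TBT difference was -0.97 ± 0.33 and did not pass either (adjusted p = 0.105), with 1 immobilised array, replicate 2, among the controls. Without that array it was -1.32 (adjusted p = 0.0386).

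At the Z-disc, ACTN2, the alpha-actinin of striated muscle, had 5.75, 5.10 and 5.25 in immobilised femur against 7.23 and 7.55 in control femur. In the TBT it had 4.36, 4.98 and 5.07 after immobilisation against 7.38, 8.21 and 6.52 in controls. ACTN2 groups were more than 1 log2 unit apart at their nearest arrays in both elements. Its change was -2.02 ± 0.36 in the femur (adjusted p = 0.00328) and -2.57 ± 0.32 in the TBT (adjusted p = 0.000127), leaving 24.6% and 16.9% of the control level. MYOZ2, which encodes myozenin 2 (calsarcin-1), a binding partner of alpha-actinin and of calcineurin, had 2.44, 2.89 and 3.21 in immobilised femur against 4.17 and 4.29 in control femur. In the TBT it had 2.82, 2.80 and 2.64 after immobilisation against 4.19, 4.68 and 4.13 in controls. All immobilised MYOZ2 values were at the low end of the array's scale, and its changes were the most precisely measured of the 10, at -1.38 ± 0.23 (adjusted p = 0.00192) and -1.58 ± 0.20 (adjusted p = 0.000156).

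CSRP3, PDLIM3 and SMPX moved less. CSRP3, the muscle LIM protein, had 4.21, 4.2 and 4.30 in immobilised femur against 4.79 and 5.39 in control femur, and the difference of -0.85 ± 0.35 did not pass (adjusted p = 0.193). In the TBT it had 3.66, 4.39 and 4.24 after immobilisation against 5.07, 5.55 and 5.37 in controls, and this change of -1.23 ± 0.32 passed (adjusted p = 0.0277). PDLIM3, the LIM protein that binds alpha-actinin, had 4.44, 4.57 and 4.17 in immobilised femur against 5.02 and 4.84 in control femur, where the difference of -0.54 ± 0.30 did not pass (adjusted p = 0.352). For both genes the arrays of the 2 groups were separate in both elements, and the TBT difference was the wider. PDLIM3 in the TBT had 3.77, 3.74 and 4.5 after immobilisation against 5.08, 5.25 and 4.95 in controls, a change of -1.09 ± 0.27 (adjusted p = 0.0218). SMPX encodes a small muscle protein of the costamere, the link between Z-discs and the cell membrane. It had 3.13, 3.44 and 3.91 in immobilised femur against 4.51 and 4.43 in control femur, and 3.60, 3.60 and 3.47 in immobilised TBT against 4.19, 4.67 and 4.03 in control TBT. SMPX arrays did not overlap, but its differences of -0.98 ± 0.29 and -0.74 ± 0.26 did not pass (adjusted p = 0.0596 and 0.109).

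The femur count rested on the spread shared over all 8 groups and on its 2 control arrays: it was 1 without control femur replicate 2 (MYOZ2), 1 by SAM (ACTN2; 0.391% of all probe sets), and 0 by limma with those 5 arrays alone, where 8 of 10 had an unadjusted p under 0.05; MYOM2 also lost its call without control replicate 1 or immobilised replicate 2 or 3. In the TBT 5 of 10 were called without control replicate 2, without control replicate 3 or without immobilised replicate 1, as CSRP3 and PDLIM3 were lost each time (CSRP3 also without immobilised replicate 3 and PDLIM3 without immobilised replicate 2), and 2 of 10 (ACTN2 and MYOZ2) with those 6 arrays alone.

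**Figure D2:**
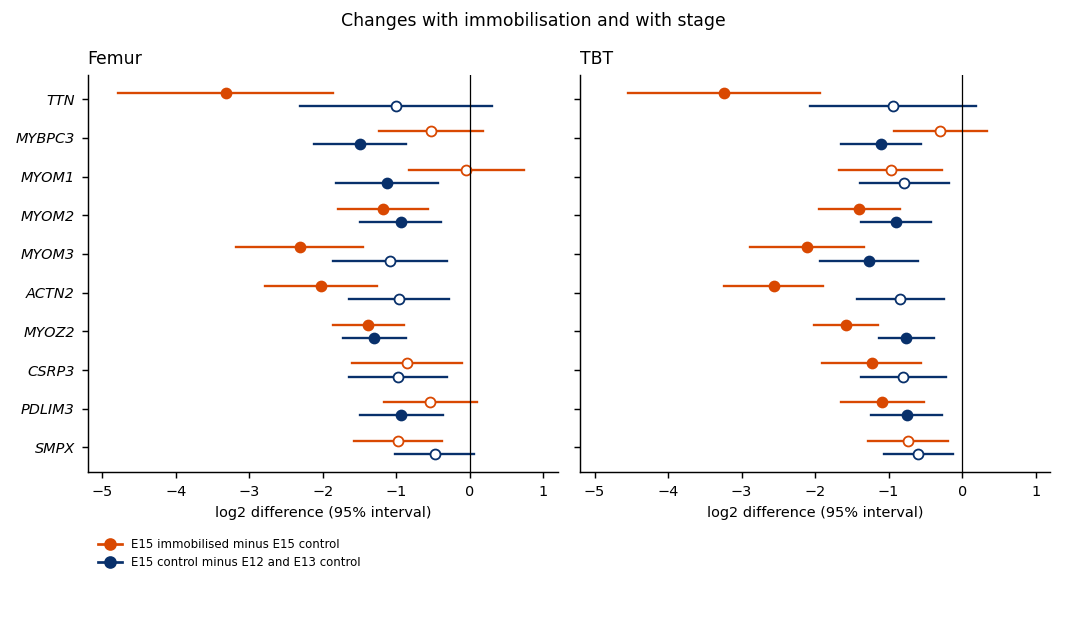
Log2 difference with its 95% interval (horizontal axis) for each gene, in the femur and in the TBT, for immobilised minus control at E15 and for E15 minus the mean of E12 and E13 in controls; filled points had an adjusted p under 0.05 by limma. All 40 points lie below 0, TTN with immobilisation is the farthest from 0 at -3.32 in the femur, and MYOM1 with immobilisation in the femur is the nearest at -0.05.

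Whether the response differed between elements was tested as an interaction. None of the 10 genes was called (limma), and none had an unadjusted p under 0.05, while 0.182% of all probe sets were called. The widest difference was that of MYOM1, whose immobilisation effect was higher in the femur than in the TBT by 0.92 ± 0.50 (adjusted p = 0.638). For TTN the difference was -0.08 ± 0.93, a spread that leaves room for a sizeable difference in either direction. CSRP3 and PDLIM3, called in the TBT alone, differed between elements by 0.38 ± 0.48 and 0.55 ± 0.40 (adjusted p = 0.885 and 0.755), so the data do not show that they responded in one element only.

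The second question was how the genes changed as control cartilage matured. This comparison shares its E15 control arrays with the immobilisation comparison, in which they stand on the other side, so the values are set side by side and no relation between them is computed. All 10 genes were lower on average at E15 than at E12 and E13 in both elements, with a median change of -0.99 in the femur and -0.82 in the TBT. In the femur 5 of 10 were called lower (MYBPC3, MYOM1, MYOM2, MYOZ2 and PDLIM3), against 6.97% of all probe sets. In the TBT 5 of 10 were called lower (MYBPC3, MYOM2, MYOM3, MYOZ2 and PDLIM3), against 5.72% of all probe sets.

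MYBPC3, not called with immobilisation, showed the largest change with stage in the femur. Its log2 values were 5.47, 6.21 and 5.99 at E12, 4.56, 5.06 and 5.8 at E13 and 4.12 and 3.92 at E15 in control femur. In control TBT they were 5.36, 5.91 and 5.88 at E12, 4.81, 5.16 and 5.06 at E13, and 4.04, 4.63 and 4.10 at E15. Every E15 array was below every younger one, with changes of -1.50 ± 0.30 in the femur (adjusted p = 0.00487) and -1.11 ± 0.26 in the TBT (adjusted p = 0.0121). MYOM1 likewise differed with stage in the femur, by -1.13 ± 0.33 (adjusted p = 0.0359), beside its -0.05 with immobilisation there; in the TBT its stage difference of -0.79 ± 0.29 did not pass (adjusted p = 0.0928). Its control femur values were 7.37, 7.11 and 7.33 at E12, 6.42, 6.69 and 7.24 at E13, and 5.61 and 6.19 at E15. The E15 femur arrays were the lowest of the 8.

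By limma, TTN was called with immobilisation in both elements and with stage in neither. By SAM it was called with immobilisation in the TBT alone and with stage in the femur alone. It had 9.09, 9.20 and 9.28 at E12, 8.51, 8.44 and 9.01 at E13, and 7.48 and 8.36 at E15 in control femur. In control TBT it had 8.72, 9.23 and 9.32 at E12, 8.49, 8.73 and 9.10 at E13, and 8.09, 9.07 and 6.80 at E15. The control TBT arrays at E15 spread over more than 2 log2 units, and replicate 2 overlapped with the younger arrays. The differences with stage of -1.0 ± 0.62 and -0.95 ± 0.54 did not pass (adjusted p = 0.307 and 0.291), beside -3.32 and -3.24 with immobilisation. These stage differences lay near the medians of the 10 genes, -0.99 and -0.82, and had the widest SE of the 10. Whether TTN differed from MYBPC3 or MYOM1 in its change with stage was not tested. ACTN2 had 8.46, 8.69 and 8.7 at E12, 7.84, 7.95 and 8.47 at E13, and 7.23 and 7.55 at E15 in control femur, and 7.94, 8.46 and 8.69 at E12, 7.86, 8.03 and 8.29 at E13, and 7.38, 8.21 and 6.52 at E15 in control TBT. Here too replicate 2 of the E15 control TBT lay among the younger arrays. Its differences were -0.96 ± 0.32 and -0.84 ± 0.28 with stage (adjusted p = 0.0594 and 0.0672) beside -2.02 and -2.57 with immobilisation. Without control TBT replicate 2 at E15 the TBT difference of ACTN2 was -1.26 (adjusted p = 0.00832), and without replicate 3 it was -0.42 (adjusted p = 0.452).

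In the main fit MYOZ2 and MYOM2 were called in all 4 comparisons. In other settings MYOM2 with immobilisation in the femur passed in 5 of 12, and MYOZ2 with stage in the TBT in 13 of 16. MYOZ2 had 5.56, 5.91 and 6.0 at E12, 5.19, 4.99 and 5.53 at E13, and 4.17 and 4.29 at E15 in control femur, a change of -1.30 ± 0.20 (adjusted p = 0.00111). In the TBT the change was -0.76 ± 0.18 (adjusted p = 0.0117), and in both elements the E15 values were all below the younger ones. In control TBT MYOZ2 had 4.95, 4.98 and 5.59 at E12, 5.10, 4.94 and 5.02 at E13, and 4.19, 4.68 and 4.13 at E15. MYOM2 had 5.73 to 6.37 over the E12 and E13 femur arrays and 5.78 to 6.54 over those of the TBT. It fell by 0.94 in the femur (adjusted p = 0.0272) and by 0.90 in the TBT (adjusted p = 0.0181). MYOM3 had 6.66, 6.75 and 7.10 at E12, 5.92, 6.05 and 6.83 at E13, and 5.13 and 5.81 at E15 in control femur, and 6.41, 6.67 and 7.16 at E12, 6.24, 6.72 and 6.51 at E13, and 5.51, 6.02 and 4.52 at E15 in control TBT. All its E15 arrays were below the younger ones of the same element. It fell by 1.27 in the TBT (adjusted p = 0.0181), and its femur difference of -1.08 ± 0.37 did not pass (adjusted p = 0.0616). PDLIM3 fell by 0.94 and 0.76 in the femur and the TBT (adjusted p = 0.0315 and 0.0484). Over the 12 control arrays at E12 and E13, CSRP3 had 5.59 to 6.98, PDLIM3 5.19 to 6.53 and SMPX 4.33 to 5.67, so that SMPX was below the median of every array even in young cartilage. CSRP3 had differences of -0.98 and -0.80 (limma, adjusted p = 0.0527 and 0.0754) and SMPX of -0.48 and -0.60 (adjusted p = 0.238 and 0.0976). None of these passed by limma, while SAM called both genes in the TBT. 

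These stage counts leaned on single arrays. Without control TBT replicate 3 at E15 none of the 10 was called in the TBT by limma, though 6 had an unadjusted p under 0.05, and in the femur 2 were called without control replicate 1 (MYBPC3 and MYOZ2) and 1 without control replicate 2 (MYOZ2). Without control TBT replicate 2 at E15, 6 were called in the TBT, as ACTN2 and MYOM1 (-1.19, adjusted p = 0.0174) passed and PDLIM3 did not (adjusted p = 0.0713). Without control femur replicate 3 at E13, MYOM1 no longer passed in the femur (-1.01, adjusted p = 0.0521). SAM called 7 of 10 in each element, against 4.34% of all probe sets called lower in the femur and 9.91% in the TBT. Those of the femur were TTN, MYBPC3, MYOM1, MYOM2, MYOM3, ACTN2 and MYOZ2. Those of the TBT were MYBPC3, MYOM2, MYOM3, MYOZ2, CSRP3, PDLIM3 and SMPX. PDLIM3 in the TBT passed in 4 of 16 other settings.

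The change with stage was also compared between elements. None of the 10 was called, none had an unadjusted p under 0.05, and 0% of all probe sets were called. The widest difference was that of MYOZ2, at -0.54 (femur minus TBT), with an adjusted p of 0.493 by limma.

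Over the single day between E12 and E13 all 10 genes were lower on average at E13, by a median of 0.37 on the log2 scale, and none was called (limma; 0% of all probe sets, and SAM called none of the 10 and 0.00909% of all probe sets). Unadjusted p values under 0.05 were found for 2 genes. These were MYBPC3, with -0.73 ± 0.21 (adjusted p = 0.345), and MYOZ2, with -0.37 ± 0.14 (adjusted p = 0.568).

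Femur and TBT were set against each other at each age. None of the 10 was called between femur and TBT at E12 (0% of all probe sets), at E13 (0%), in E15 controls (0.209%) or in immobilised embryos (2.04%) by limma. SAM called none of them either, with 0.00909%, 0%, 0.00909% and 2.51% of all probe sets called in these comparisons. One gene, MYOZ2, had an unadjusted p under 0.05 at E12, where it had 5.56, 5.91 and 6.0 in the femur against 4.95, 4.98 and 5.59 in the TBT, a difference of 0.65 ± 0.20 (adjusted p = 0.450). After immobilisation the largest differences were those of MYOM1, at 0.67 ± 0.33 (adjusted p = 0.393), and of ACTN2, at 0.56 ± 0.32 (adjusted p = 0.499). Both were higher on average in the femur. ACTN2 had 5.75, 5.10 and 5.25 in immobilised femur against 4.36, 4.98 and 5.07 in immobilised TBT, with the nearest arrays at 5.10 and 5.07. In E15 controls the 10 differences lay between -0.25 and 0.17.

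The genes were alike in pattern across arrays. Over the 23 arrays the Pearson correlation between 2 members ranged from 0.79 to 0.97 in the 45 pairs, most of which comes from the group means they share. With each group's mean removed it ranged from -0.04 to 0.83, with a median of 0.45, and it was above 0 in 43 of 45 pairs. Both values of a pair come from the same array and scaling, so these are descriptions with no test. TTN was most like ACTN2 (r = 0.96), ACTN2, MYOZ2 and CSRP3 were each most like MYOM3, and MYBPC3 was the least alike to TTN, MYOM2, MYOM3 and ACTN2. MYOM1 was the least alike to MYOZ2, CSRP3, PDLIM3 and SMPX. Of 7112 other named genes past the filter, the 10 closest to the mean of the members were MYH1G, SMYD1, TNNC1, MAT1A, KLHL31, ACTC1, TNNI1, CASQ2, BHMT2 and XIRP1, with r between 0.96 and 0.98. They include a myosin heavy chain (MYH1G), 2 slow or cardiac troponins (TNNC1 and TNNI1), cardiac actin (ACTC1) and SMYD1, a methyltransferase needed for sarcomere assembly. MAT1A and BHMT2, enzymes of methionine metabolism, are known for the liver in mammals rather than for muscle. MAT1A was lower after immobilisation in both elements (-1.50 in the femur and -1.31 in the TBT, adjusted p = 0.00141 and 0.0012).

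Other genes of the Z-disc, M-band and titin network were read from a list of 56, of which 37 were on the array and 19 past the filter. With immobilisation 2 of 19 were lower in the femur, MYBPC1 and CAPZA2, an actin-capping subunit (-0.42, adjusted p = 0.0452). In the TBT 4 of 19 were lower and 1 higher. The lower ones were MYBPC1, SMYD1 (-1.53, adjusted p = 0.0142), and the LIM proteins PDLIM1 (-0.81, adjusted p = 0.00484) and FHL3 (-0.75, adjusted p = 0.00346), and the higher one was LMCD1 (0.54, adjusted p = 0.0103). The median of the 19 was -0.15 in the femur and -0.27 in the TBT, with 14 and 17 of them below 0 and 5 and 2 above. It mixes genes high in every group, such as CAPZA1, CAPZB and CFL2, with lower ones such as MYBPC1 and SMYD1. MYOZ1, NEBL, MYPN, UNC45B and TMOD4 were among those below the filter, and their change was not tested. The median therefore holds only for the genes past the filter. SYNPO2L (-1.01 and -0.497) and TRIM55 (-0.465 and -0.423) were lower on average without passing. XIRP1, the actin-binding Xin protein, had -0.90 and -0.99, which did not pass (adjusted p = 0.149 and 0.066). With stage 5 of 19 were lower and 1 higher in the femur, and 5 of 19 were lower in the TBT. SMYD1 changed most there, by -2.22 (adjusted p = 0.00102) and -1.63 (adjusted p = 0.0028), and XIRP1 changed by -1.20 and -1.13 (adjusted p = 0.018 and 0.0119).

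Relatives of the members, listed for their work in cells without sarcomeres, were read as well, and 8 of them passed the filter. PDLIM1, PDLIM5 and FHL3 were in both lists, so this list is not free of Z-disc partners. ACTN1 and ACTN4, the alpha-actinins of stress fibres and cell junctions, had differences of 0.22 and 0.26 with immobilisation in the femur and of -0.02 and -0.22 in the TBT, none of which passed (adjusted p = 0.11 and 0.297, 0.94 and 0.327). None of the 8 was called in the femur by limma, where ACTN1 had an unadjusted p of 0.00899. In the TBT 3 were lower: CSRP2, a relative of CSRP3 (-0.98, adjusted p = 0.00374), PDLIM1 and FHL3.

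**Figure D3:**
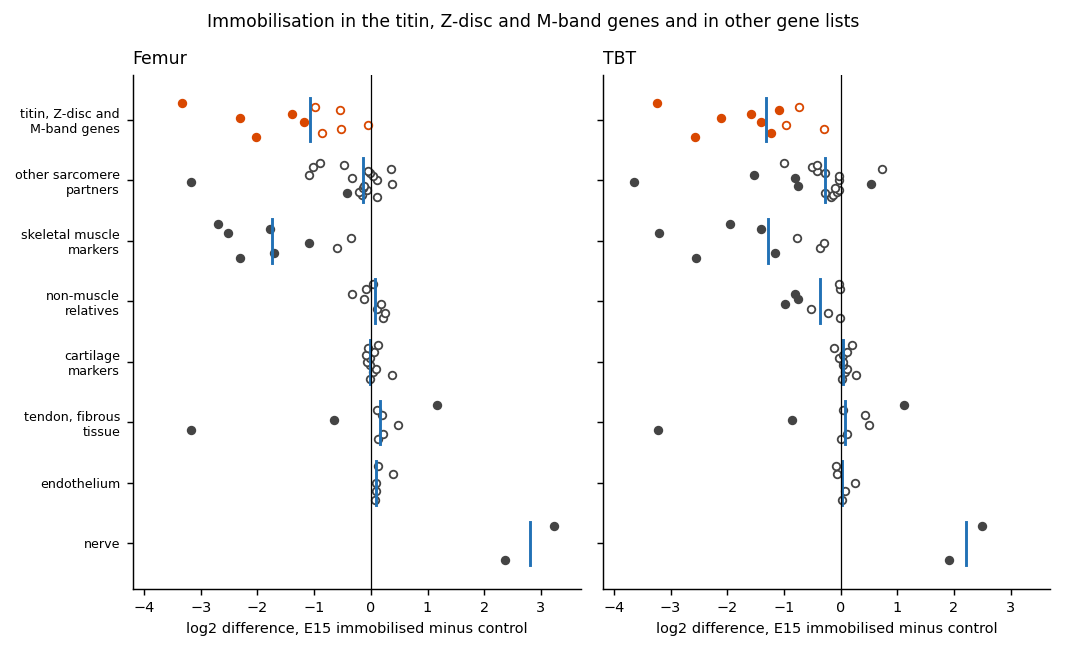
Log2 difference between immobilised and control cartilage at E15 (horizontal axis) for every gene past the filter in 8 gene lists, in the femur and in the TBT; filled points had an adjusted p under 0.05 by limma and the bar is the list's median. The titin, Z-disc and M-band genes have medians of -1.08 and -1.32 and the skeletal muscle markers of -1.75 and -1.28, while the cartilage markers lie around 0 and the 2 neurofilament genes are higher.

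Markers of other tissues moved beside these genes. Of 8 skeletal muscle markers past the filter 6 were lower with immobilisation in the femur and 5 in the TBT, among them skeletal actin ACTA1 (-2.30 and -2.56) and fast troponin C TNNC2 (-2.53 and -3.21). MYOG, MYF6, PAX7, CACNA1S and MYH1A were on the array but fell below the filter, and their change was not tested. Since the filter favours genes that differ widely between arrays, these counts hold only for the markers past it. Their mean centred log2 level ranged from -2.04 to -0.89 in immobilised femur against -0.14 to 0.19 in control femur, and from -1.80 to -1.07 in immobilised TBT against -0.54 to 0.22 in control TBT. The same mean over the titin, Z-disc and M-band genes ranged from -1.66 to -1.29 in immobilised femur against -0.34 to -0.01 in control femur, and from -1.92 to -1.31 in immobilised TBT against -0.57 to 0.45 in control TBT. With group means removed, the 2 means had a correlation of 0.77 over the 23 arrays, each array giving both means. For the other lists this value ranged from -0.393 (cartilage markers) to 0.891 (Z-disc, M-band and titin partners). It was 0.573 for endothelial markers and 0.475 for tendon and fibrous tissue markers, so it was not particular to the muscle list. None of the 11 cartilage markers was called with immobilisation in either element by limma, and none had an unadjusted p under 0.05 in the TBT other than CHAD and COL11A1, or in the femur other than CHAD.

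Neurofilament genes and genes of fibrous tissue also moved with immobilisation. The neurofilament genes NEFL and NEFM, the only nerve markers past the filter of 9 listed, were higher in both elements (2.37 and 3.23 in the femur, 1.92 and 2.50 in the TBT). Their spread came mainly from the immobilised arrays, so the filter itself favoured nerve genes with such a rise. The other 2 on the array, SOX10 and S100B, lay at means of 4.04 and 3.42 and fell below the filter. Their change was not tested, so nerve markers as a set were not assessed. Of 8 tendon and fibrous tissue markers DPT and POSTN were lower and TNMD higher in each element. DPT changed by -3.18 and -3.21, and TNMD, made by tendon cells, by 1.17 and 1.12 (adjusted p = 0.0128 and 0.00629). None of 5 endothelial markers was called in either element by limma, where TIE1 in the femur had an unadjusted p of 0.0302. In the TBT 2 of 3 erythroid markers were lower with immobilisation (median of the 3 -0.63) and 1 of 4 hypertrophic cartilage markers was (median of the 4 -0.77), with none of either list called in the femur by limma, at an unadjusted p of 0.128 or more.

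Markers moved with stage as well. Of 8 skeletal muscle markers past the filter 3 were lower at E15 than at E12 and E13 in the femur and 3 in the TBT, with medians of -0.75 and -0.66. Of 3 erythroid markers all were higher at E15 in each element, with medians of 0.78 and 1.00, and of 3 leukocyte and osteoclast markers 2 were, with medians of 0.71 and 0.77. Of 5 endothelial markers 2 were higher at E15 in the femur and none in the TBT by limma, where VWF had an unadjusted p of 0.0135, and of 4 hypertrophic cartilage markers 2 were higher in the femur and 1 in the TBT. Of 11 cartilage markers 2 were lower in the femur and 1 was higher in the TBT. The part of the cell make-up of the pools in the changes of the titin, Z-disc and M-band genes was not tested.

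**Figure D4:**
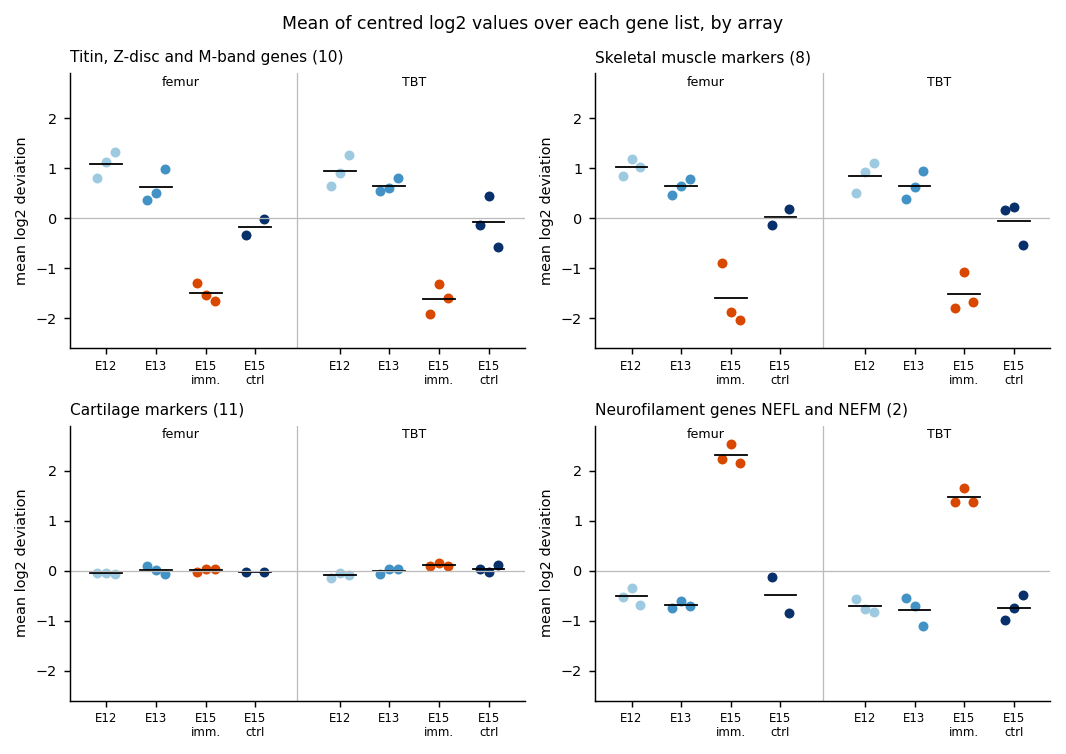
Mean of centred log2 values over each list (vertical axis) in every array, by group, for the titin, Z-disc and M-band genes, the skeletal muscle markers, the cartilage markers and the neurofilament genes; points are arrays and bars group means. The first 2 lists drop from E12 to immobilised E15 arrays, where they are lowest, the cartilage markers stay near 0 and the neurofilament genes are higher in the immobilised arrays than in any other.

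Arrays carry codes 05, 07 and 09 in their labels, whose meaning is not given. All 5 femur arrays at E15 carry 05, so the femur comparison lies within 1 code. In the TBT all 10 genes were lower after immobilisation within code 07 (1 array against 2; median -1.44) and within code 09 (2 arrays against 1; median -1.65). The stage change of the TBT was lower for all 10 within code 07 (median -1.15) and for 7 of 10 within code 09 (median -0.46), where control TBT replicate 2 was the only E15 array. In the femur, code 05 holds the 2 control arrays at E15 and 2 of those at E12, between which the median change was -1.21, with all 10 lower. All E13 femur arrays carry 07, so E13 and E15 femur arrays were not compared within a code. With the code as a term in the fit, 2 of 10 (MYBPC3 and MYOZ2) instead of 5 were called with stage in the femur.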

How the data were processed

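The deposited values, 1 table for the 23 arrays, are on the log2 scale: per the labels the authors summarised Affymetrix probe intensities by RMA (affy), and their methods name aroma.affymetrix and a custom probe-set file, with 1 array left out after principal component analysis. RMA scales arrays to a common distribution, which hides a change shared by most genes, and low values approach background, so that a log2 difference between low values understates a change. The genome build is not given in the sources used here, so no positions are printed. The number of arrays, not depth, limits the precision.

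Probe sets with a linear standard deviation over 10, the filter in the methods, were fitted with limma 3.58.1 (R 4.3.3) on 8 group means, with 15 residual degrees of freedom, two-sided, adjusted by Benjamini-Hochberg over 11004 probe sets. The methods' SAM was rewritten and used as an alternative, with at most 100 relabelings. Both were also run on simulated data with known shifts and independent noise for each probe set. Such data cannot show how the tests behave where genes rise and fall together on an array, as here. The other alternatives are named in the closing section. Gene symbols came from the platform annotation, with 1 symbol for 12300 probe sets, several for 256 and none for 8248, and 2 list genes matched by an older symbol. Each gene is 1 probe set, and signal of closely related genes could be mixed in it. Nothing says how pools relate to batches, so p-values measure the spread between these pools. All 10 genes are named, and list genes by the lowest p with immobilisation or as counterparts of members. Genes and lists were chosen with earlier results of these data known.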

Additional observations from a re-analysis of the deposited data

How the results depend on the processing

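With values under each array's median set to that median, the count with immobilisation was 2 of 10 in the femur and 2 of 10 in the TBT (TTN and ACTN2), and with stage 3 and 3. By construction this setting sets most values of the low genes to the median: in the femur MYBPC3, MYOM2, MYOM3, MYOZ2, CSRP3, PDLIM3 and SMPX came out at 0.005 each with immobilisation, in the TBT MYBPC3, MYOM2, MYOZ2, CSRP3, PDLIM3 and SMPX at 0.0067 each, and with stage SMPX at 0.013 in the femur and MYOZ2 and SMPX at 0.0017 in the TBT. With the compared groups alone, 0 and 2 of 10 were called with immobilisation and 3 and 2 with stage, in the femur and the TBT. That fit has fewer degrees of freedom and takes the spread from those groups only, and which of these mattered was not tested. SAM called 1 of 10 with immobilisation in the femur (ACTN2) and 6 of 10 in the TBT (TTN, MYOM3, ACTN2, MYOZ2, CSRP3 and PDLIM3). In the TBT it called 294 of all 11004 probe sets lower, and MYOM2, called there by limma, was not among them. No filter and the array code as a block each left 2 with stage in the femur; the cause was not tested.

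Leaving out 1 array at a time gave 1 to 5 calls with immobilisation in the femur, 5 to 7 in the TBT, 1 to 5 with stage in the femur and 0 to 6 in the TBT, and a lone array left in an arm was taken to vary like the other groups. MYOM1 with immobilisation in the femur ranged from -0.34 to 0.24 and turned to 0.24 without control replicate 2 and to 0.11 without immobilised replicate 3. The counts of 0 for the other comparisons stayed 0 in every setting run. Of 560 repeats of a gene's change in the 4 main comparisons, 453 kept direction and side of the threshold, 70 lost the call, 19 gained it and 18 turned. The 560 include changes not called in the main fit, which have no call to lose. Some of the 18 that turned had been called, so 70 does not count every call lost. A second quantile normalization and an intensity trend moved no count by more than 1. Same-numbered arrays had correlations of -0.17 to 0.07, which cannot decide whether femur and TBT pools of one number share embryos. The mean of the 10 genes rose from replicate 1 to 3 in both elements at E12 and at E13, but not in control TBT at E15 or in immobilised arrays. Fits between elements took the arrays as unpaired. With a replicate block 7 of 10 were called with immobilisation in the femur and 7 in the TBT. With stage it was 7 in the femur and 6 in the TBT. Averaging several probe sets of a gene was not run, since each gene has 1.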
